A study of Homo sapiens with 7 samples.

Results

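L-428 is an established cell line of classical Hodgkin lymphoma (HL), and it was profiled with 1 of the 7 arrays of the series. For every gene its level was set against the levels of the other 6 lines, U-HO1, SUP-HD1, L-540, L-1236, KM-H2 and HDLM-2, all labelled as HL lines with no treatment named. The study asked which genes accompany aberrant activity of the homeobox gene NKX2-2 in HL, and these arrays of total RNA served it as expression profiles. Each line is 1 array, so no difference given here carries a replicate error or a test, and every statement describes these arrays. The arrays came from a pair of laboratories and the sources used here do not say which line was run where, so laboratory and line cannot be told apart.

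Classical HL grows from Hodgkin and Reed-Sternberg (HRS) cells, which descend from germinal centre B-cells but have lost most of the B-cell program. These cells depend on active NFkB and JAK-STAT signalling, secrete chemokines and cytokines that attract other leukocytes, and often change the molecules by which T-cells recognise them. A cell line such as L-428 holds the tumour cells alone, without the leukocytes that surround them in the patient.

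Levels are log2 values made by robust multi-array averaging (RMA), on which a difference of 1 means a doubling. The background of an array is the 95th percentile of its 107 olfactory receptor probe sets, and it was 4.75 in L-428. A gene was called higher where L-428 lay at least 1 above each of the other lines and above background, and lower where it lay at least 1 below each of them with all 6 above background. The gap is the distance to the nearest other line, and the difference is the value in L-428 minus the mean of the 6. Of 19775 genes measured, 219 were called higher, which is 1.11%, and 58 were called lower, which is 0.293%. By a broader rule, adopted after the values were seen, 1469 genes (7.43%) lay at least 1 above the mean of the others with L-428 above background. On the same rule 801 genes (4.05%) lay at least 1 below that mean, with at least 4 of the 6 others above background. Members of a gene list that missed the gap rule but are named below were picked after their values were seen.

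The L-428 array itself was regular. Its 3′ to 5′ difference for ACTB was 0.06 on the log2 scale against 0.37 to 2.11 in the others, and 11074 of its genes were above background against 8703 to 11682. The arrays of L-1236, with a background of 5.59, and of U-HO1, with an 18S probe level of 11.12 and the ACTB value of 2.11, stood apart from the rest. Without both lines 362 genes were called higher and 220 lower in L-428, among them all 219 and all 58 of the main calls. The gap rule applied to every other line in turn called 243 to 523 genes higher and 65 to 997 lower, so L-428 had the fewest in both directions. Correlation with L-428 across genes ran from 0.84 in L-1236 to 0.89 in SUP-HD1.

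The label was set against markers of the cell types involved, each read from the probe set that stands for its gene, the one with the highest mean level. All 7 HRS markers were above background in L-428, namely TNFRSF8 (which encodes CD30), FUT4 (which makes CD15), FSCN1, TRAF1, CCL17, BATF3 and CD274. CCL17, a chemokine that attracts helper T-cells, stood at 11.76, below HDLM-2 at 13.07 and above the remaining lines, which ranged from 6.64 to 10.09. At these probe sets 3 of 8 measured B-cell markers, CD22, EBF1 and POU2F2, were above background. The other probe sets of CD22 and EBF1 were all below background in L-428. Those of POU2F2 lay on both sides of it, from 2.41 to 5.03. Another probe set of CD79A was just above background at 4.81. PAX5, the factor that maintains B-cell identity, was at 4.60 in L-428 and between 4.86 and 8.18 in the others, so that L-428 was the lowest and the single line below its background at this probe set. Another PAX5 probe set read 4.92 in L-428, just above background and inside a range of 3.73 to 5.65. None of 5 measured myeloid markers was above background, and their summed level (log2) was 6.11 in L-428 against 6.37 to 8.94. Among the 7 T-cell markers CD5 at 5.15 and BCL11B at 5.06 were just above background, while CD3D, CD3E, CD3G, CD247 and CD2 were below it. Another probe set of CD247 was above it at 5.03, inside a range of 4.06 to 5.38. NKG7 at 4.77, PRF1 at 4.92 and NCAM1 at 4.81 of 5 NK and cytotoxic markers, PRDM1 of 4 plasma cell markers, and COL1A1 and KRT18 of 4 fibroblast and epithelial markers were also above it. In bulk RNA, fewer cells with a transcript and less transcript per cell cannot be told apart.

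The genes by which L-428 stood farthest above the other lines were at or below background in most of them. The antisense transcript DIAPH2-AS1 had the largest gap, 6.05, with a level of 9.87 in L-428 and a lowest, median and highest level of 2.64, 3.22 and 3.82 in the others. TSPAN8, a tetraspanin better known from epithelial tumours, stood at 9.57 against 2.65, 2.79 and 3.92, a gap of 5.65. No other line was above its background.

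TFPI2, a secreted inhibitor of serine proteases, had the largest difference from the mean of the others, 7.41. L-428 stood 4.60 above the next line, U-HO1 at 6.40, while the remaining lines lay between 2.81 and 3.43. GNG11, which encodes a G-protein gamma subunit and lies near TFPI2 on chromosome 7, had U-HO1 as its next line too. It stood at 9.83 in L-428 and 5.20 in U-HO1, and between 2.42 and 2.91 elsewhere. In both genes U-HO1 was the single other line above background.

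The other genes of the 15 largest gaps differ in what they are known to do. AMPH, a protein of synaptic vesicle endocytosis, was at 9.12 in L-428 and between 2.91 and 3.97 in the others. PCP4, a calmodulin-binding protein first known from Purkinje cells, was at 9.93 against 2.91, 3.54 and 4.97. RAB27B, a small GTPase of vesicle secretion, was at 8.63 with a highest other level of 4.17, and all 3 of its probe sets were highest in L-428. ASS1, an enzyme of arginine synthesis, was at 9.36 with a highest other level of 5.29. The mitochondrial carrier SLC25A21 was at 8.45, the zinc finger gene ZNF365 at 8.25 and SAMD5 at 8.24, with highest other levels of 4.14, 3.38 and 3.28. ARMCX2 at 9.39, FAM9C at 10.14 and TMEM255A at 6.43, like DIAPH2-AS1, lie on the X chromosome. X-linked genes made up 17 of the 219 called higher, which is 7.76%, against 3.52% of all measured genes.

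SPRY2, a feedback inhibitor of receptor tyrosine kinase signalling, was at 7.32 in L-428 and between 2.51 and 3.25 in the others. DUSP6, a phosphatase that switches off ERK and was picked after its values were seen, was at 9.12 in L-428, between 3.73 and 6.06 in the others, and highest in L-428 at all 3 probe sets. Another gene of this feedback did not share the pattern. SPRY4 was at 4.16, below background, within a range of 3.45 to 6.04.

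**Figure D1:**
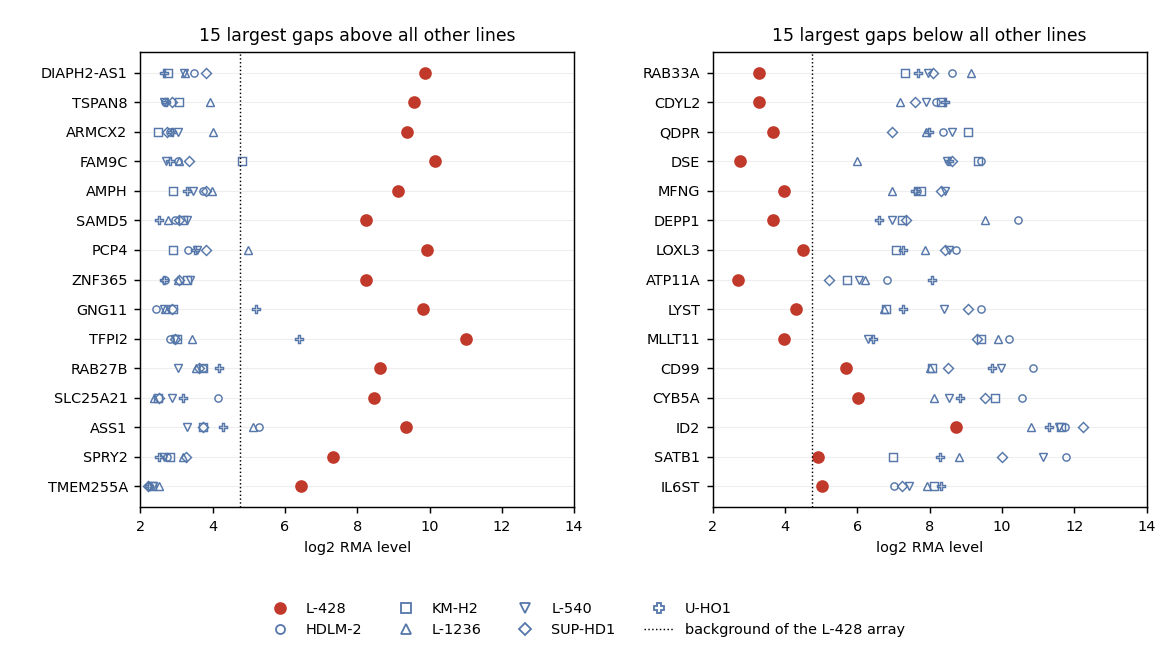
Levels (log2 RMA) of the 15 genes with the largest gaps above (left) and below (right) all other lines, with L-428 as filled red circles, the other 6 lines as open symbols and the background of the L-428 array as a dotted line. On the left most other lines are below background, and on the right L-428 is below it for 10 genes, from RAB33A at 3.28 to MLLT11 at 3.96 in the order of the gaps, and above it for CD99, CYB5A, ID2, SATB1 and IL6ST.

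The genes missing from L-428 were, by the rule, present in all other lines. RAB33A, a small GTPase of the Golgi and of autophagy, was at 3.28, below background, against 7.32, 8.03 and 9.15, a gap of -4.04. CDYL2, a chromodomain protein, was also at 3.28 against 7.17, 8.04 and 8.41, and QDPR, which regenerates tetrahydrobiopterin, was at 3.66 against 6.96, 8.17 and 9.07. Raised to the background of the array, the gaps of RAB33A and CDYL2 were -2.57 and -2.42, which is the part of the loss that the array could resolve. DSE, MFNG, DEPP1, LOXL3, ATP11A, LYST and MLLT11 were likewise below background in L-428 and above it in the other 6 lines at the probe sets used. Another DEPP1 probe set was lowest in L-428 too but above background, at 4.97 with a lowest other level of 5.88. Another QDPR probe set, above background in 1 line alone, did not place L-428 lowest. DSE, an enzyme of dermatan sulfate synthesis, was at 2.76 against 5.99, 8.57 and 9.41. MFNG, a glycosyltransferase that modifies Notch receptors, was at 3.96 against 6.96, 7.71 and 8.42 at the probe set used. Another MFNG probe set was also lowest in L-428, while the remaining one, near background, was 0.28 above the mean of the others. The other 3 probe sets of DSE and the other 5 of ATP11A did not place L-428 lowest, so these losses rest on 1 probe set each.

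CD99, SATB1, ID2, CYB5A and IL6ST, also among the 15 largest losses, stayed above background in L-428. CD99, an adhesion molecule whose loss is a known feature of HRS cells, was at 5.69 against 8.0, 9.12 and 10.87, and both of its probe sets were lowest in L-428. SATB1, a chromatin organiser of lymphocytes, was at 4.92 against 6.99, 9.40 and 11.76. ID2, an antagonist of E proteins such as the B-cell factor TCF3, was at 8.73 against 10.81, 11.60 and 12.23, and thus lower than elsewhere but far above background. CYB5A, a carrier of electrons to microsomal enzymes, was at 6.01 against 8.13, 9.19 and 10.55 and lowest at all 4 probe sets. IL6ST (gp130), the shared signalling chain of the IL6 family receptors, was at 5.03 against 7.0, 7.68 and 8.32, and L-428 was lowest at 2 of 7 probe sets. The antioxidant enzymes HMOX1 at 4.23 and NQO1 at 5.56, picked after their values were seen, were called lower as well, with lowest other levels of 5.80 and 7.03.

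Just inside the limits lay PHKG2 and HSF1, with gaps of 1.0 and 1.01, and CCDC92 and IL10RA, with gaps of -1.01 and -1.02. Just outside lay SMARCD3 and CCR4, both at 0.99, and BACH1 and A1BG, both at -0.99. Different probe sets of 1 gene gave differences whose pooled SD was 0.48 over 5053 genes, so the order of genes this close to a limit is not settled. Of the genes called higher 121 had several probe sets, and in 66 of these every probe set was highest in L-428. Of the genes called lower 39 had several, and in 12 every one was lowest.

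In the NFkB pathway 1 inhibitor, TNFAIP3, was called higher and another, NFKBIE, lower. TNFAIP3 (A20), a ubiquitin-editing enzyme that switches NFkB signalling off and is itself an NFkB target, was at 12.16 in L-428 against 8.57, 9.27 and 10.79, a gap of 1.37, and highest at both probe sets. NFKBIE, which encodes the inhibitor IkB-epsilon, was at 5.33 against 6.44, 7.11 and 7.68, a gap of -1.11 at its single probe set. NFKBIA, the inhibitor IkB-alpha, was at 10.91 within a range of 10.03 to 12.32, and the difference was -0.28. Of 11 measured inhibitors TNFAIP3 and TNIP3 (18.2%) lay at least 1 above the mean of the others and NFKBIE and NFKBIZ (18.2%) at least 1 below. Over all genes these shares were 7.43% and 4.05%. The median difference of the inhibitors was -0.07. TNIP3, which acts together with TNFAIP3, was at 6.16 with a highest other level of 6.0.

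The list of the pathway held 45 measured genes, of which 13 (28.9%) lay at least 1 above the mean of the others and 4 (8.89%) at least 1 below, against 7.43% and 4.05% of all genes. The median difference of the list was 0.31, and 0.12 without L-1236 and U-HO1, against 0.005 over all genes in both cases. The subunit genes NFKB1, NFKB2, RELA and RELB differed by -0.17 to 0.53, and REL was at 9.41 within a range of 6.23 to 10.60. Of the targets 7 of 14 lay at least 1 above the mean. TRAF1, an adaptor of TNF receptors and itself a target, was at 9.17 against 4.97, 7.81 and 8.40, so L-428 was highest with a gap of 0.77. BCL2L1 (BCL-XL), an inhibitor of apoptosis, was at 8.92 with a highest other level of 8.07 and was highest at 3 of 4 probe sets, and TBK1, a kinase that also acts in interferon induction, was at 9.32 with a highest other level of 8.86. BCL2A1 at 9.59 was exceeded by KM-H2 at 11.24 alone. NFKBIZ at 5.78 and IER3 at 8.36 had differences of -1.42 and -1.38, both inside the range of the others.

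Stretches of the promoters of TNFAIP3 and NFKBIA are shown because both genes are classical NFkB targets with differing levels here, and those of B2M and TAP1 because both genes were called lower and carry elements for NFkB and for interferon factors. The 250 bases before the RefSeq start site (GRCh38.p14) were searched on both strands for a kB motif, spelled GGG, any 2 bases, then TTTCC, and for an interferon-stimulated response element (ISRE), spelled GAAA, any 2 bases, then GAAA. Capitals mark matches, and overlapping ISRE matches run together. The windows are chr6:137867009-137867258 (plus strand) for TNFAIP3, chr14:35404750-35404999 (minus strand) for NFKBIA, chr15:44711267-44711516 (plus strand) for B2M and chr6:32853705-32853954 (minus strand) for TAP1, the first of 2 start sites listed. The annotated TNFAIP3 gene begins further upstream than the start site used.
TNFAIP3: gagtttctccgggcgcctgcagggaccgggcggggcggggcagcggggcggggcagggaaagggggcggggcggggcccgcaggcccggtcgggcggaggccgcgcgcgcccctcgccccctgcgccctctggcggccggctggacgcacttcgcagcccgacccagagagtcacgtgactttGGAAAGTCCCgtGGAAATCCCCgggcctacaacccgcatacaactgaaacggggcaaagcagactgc
NFKBIA: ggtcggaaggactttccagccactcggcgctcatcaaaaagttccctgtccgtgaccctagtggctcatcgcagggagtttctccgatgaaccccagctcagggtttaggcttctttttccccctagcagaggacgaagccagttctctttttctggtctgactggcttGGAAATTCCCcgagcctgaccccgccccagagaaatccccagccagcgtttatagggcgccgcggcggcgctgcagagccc
B2M: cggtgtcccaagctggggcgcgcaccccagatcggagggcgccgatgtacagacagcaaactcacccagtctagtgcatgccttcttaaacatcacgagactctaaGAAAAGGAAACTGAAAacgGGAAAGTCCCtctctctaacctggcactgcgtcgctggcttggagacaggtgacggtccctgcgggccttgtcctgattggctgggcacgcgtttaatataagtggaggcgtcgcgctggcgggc
TAP1: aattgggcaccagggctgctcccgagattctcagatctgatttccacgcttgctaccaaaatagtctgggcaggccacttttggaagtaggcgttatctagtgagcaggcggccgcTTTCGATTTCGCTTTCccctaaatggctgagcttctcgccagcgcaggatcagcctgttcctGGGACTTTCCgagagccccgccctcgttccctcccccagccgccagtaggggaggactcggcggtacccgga

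The TNFAIP3 window held 2 kB matches, 67 to 58 and 55 to 46 bases before the start, and that of NFKBIA held 1, 81 to 72 bases before it. The B2M and TAP1 windows each held 1 kB match and 2 overlapping ISRE matches. Among 27305 promoters of the same length 1.73% held the kB letters, 3.07% the ISRE letters and 0.0586% both. The genes were chosen as NFkB targets or as carriers of these elements, so the matches follow from that choice. A match describes the letters and not the binding of a factor in L-428.

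In the JAK-STAT pathway the genes called were STAT genes. STAT4, a mediator of IL12 and interferon signals in T- and NK-cells, was at 9.15 in L-428 against 2.97, 4.27 and 6.38, a gap of 2.77. STAT5A, which relays IL2-type and other cytokine signals, was at 9.21 against 6.23, 6.78 and 7.58, a gap of 1.63. These were 2 of 5 measured STAT genes (40.0%), against 1.11% of all genes called higher. STAT3 at 10.05 and STAT6 at 9.40 lay inside the range of the others. Of the inhibitors SOCS1 was at 9.21 within a range of 2.87 to 10.12, and SOCS3 at 5.52 within a range of 4.38 to 10.63. PIM2, a kinase gene induced by STAT5, was lowest in L-428 at 6.31, with a lowest other level of 6.61. The list as a whole had a median difference of -0.23, with 3 of 31 genes (9.68%) at least 1 above the mean of the others and 3 (9.68%) at least 1 below, against 7.43% and 4.05% of all genes.

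Among cytokines and their receptors L-428 was set apart by single genes. CCL1, a ligand of CCR8 that attracts T-cells, was at 9.25 against 3.63, 4.56 and 5.42, a gap of 3.83. IL5, the growth factor of eosinophils, a common infiltrate in HL, was at 7.18 and below background in every other line, where it ranged from 2.51 to 3.71. CSF1, the growth factor of macrophages, was at 9.54 against 5.10, 6.42 and 7.89, and all 4 of its probe sets were highest in L-428. CRLF2, a receptor chain for TSLP, was at 9.17 against 3.96, 5.15 and 7.08. These genes were picked by the gap rule, which requires L-428 to lie above every other line.

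The receptors went both ways. IL10RA at 7.59 was called lower by a gap of -1.02, beside IL6ST, and IL6R, the ligand-binding chain that pairs with IL6ST, was at 3.43 with a lowest other level of 4.80. Further receptors that were highest in L-428 without reaching the limit were IL1RL1 at 7.08, IL18R1 at 8.42 and IL5RA at 8.19, with highest other levels of 6.32, 7.69 and 7.95. IL2RA (CD25) was at 3.96, below background, within a range of 3.17 to 11.35. Of 43 receptor genes 7 (16.3%) lay at least 1 above the mean of the others and 8 (18.6%) at least 1 below, both above the shares of all genes. Among chemokine receptors CXCR3, found on activated T-cells, was at 6.64 with a highest other level of 5.29, and CCR4, the receptor of CCL17 and CCL22, was at 8.51 with a highest other level of 7.52. CCL22 itself was lowest in L-428 at 4.65, below background, against 4.98, 5.49 and 7.96, while CCL5 was at 11.57, below KM-H2 at 12.08.

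**Figure D2:**
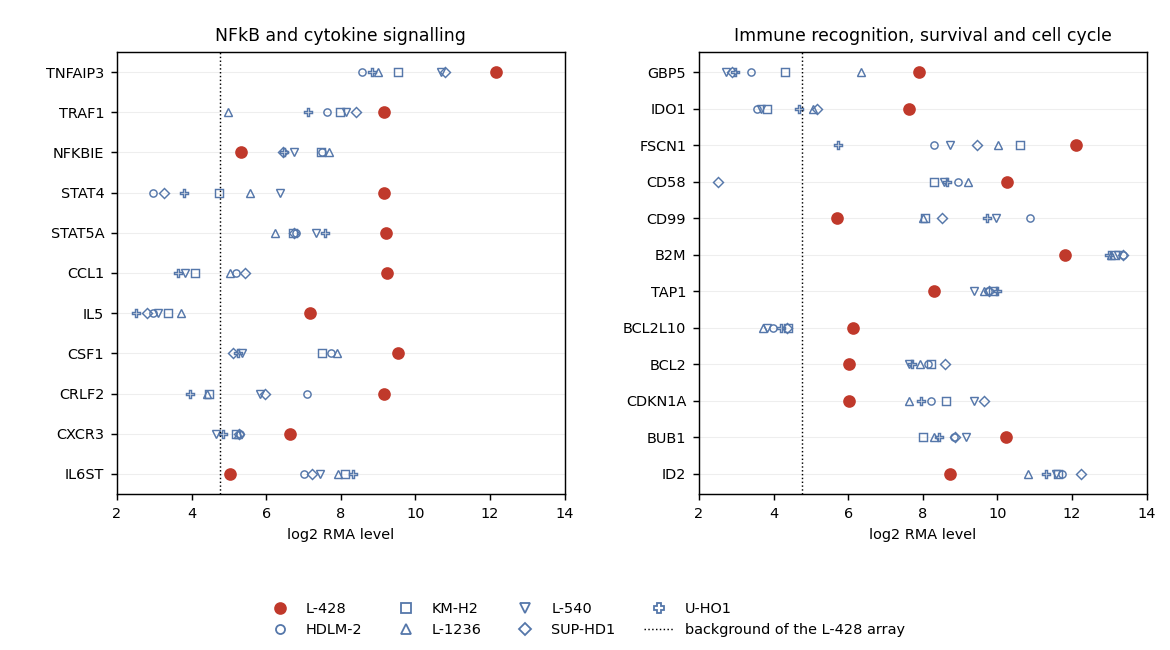
Levels (log2 RMA) of genes of signalling (left) and of immune recognition, survival and cell cycle (right), with L-428 as filled red circles, the other 6 lines as open symbols and the background of the L-428 array as a dotted line. L-428 lies outside the range of the others in every row, above for genes such as TNFAIP3, STAT4 and CCL1 and below for NFKBIE, IL6ST, CD99, B2M, TAP1, BCL2, CDKN1A and ID2. All genes shown but TRAF1 were called by the gap rule, which requires this.

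Genes of the interferon response lay mostly above the mean of the others. Of 39 measured factors and targets 15 (38.5%) lay at least 1 above the mean of the others and none at least 1 below, against 7.43% and 4.05% of all genes, and the median difference was 0.47. Without L-1236 and U-HO1 the median was 0.72. IDO1, which degrades tryptophan and thereby restrains T-cells, was at 7.62 against 3.56, 4.25 and 5.16, a gap of 2.46. GBP5, a guanylate-binding protein induced by interferon gamma, was at 7.89 against 2.72, 3.18 and 6.35, a gap of 1.54. IFIT3 at 8.44, IFIH1 at 9.05 and GBP4 at 6.22 were highest in L-428 as well, with highest other levels of 7.74, 8.54 and 5.23. IRF5, a factor linked to the HRS phenotype, was at 9.76 with a highest other level of 9.24, and IRF8 at 9.40 was exceeded by SUP-HD1 alone at 10.03. IRF1 at 7.16 and IRF4 at 10.28 lay inside the range of the other lines. IFNGR1, the ligand-binding chain of the interferon gamma receptor, was highest in L-428 at 9.16, next to HDLM-2 at 8.92.

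Of the genes of antigen presentation by MHC class I, TAP1 and B2M were called lower. TAP1, a peptide transporter that loads MHC class I, was at 8.31 against 9.36, 9.77 and 9.98, a gap of -1.05. B2M, the light chain shared by MHC class I molecules, was at 11.80 against a median of 13.20 and a highest level of 13.37, a gap of -1.20 at the probe set used. Another B2M probe set had 12.11 in L-428, inside a range of 11.77 to 13.17, and the remaining one, near background, had 5.65 inside a range of 4.75 to 6.82, so the call rests on 1 of 3 probe sets. The heavy chain genes HLA-B at 12.36 and HLA-C at 12.29 lay inside the range of the others, as did TAP2 at 7.79. ERAP2, which trims peptides, was lowest in L-428 at 4.02, below background, with a lowest other level of 4.51. The class I list had 2 of 20 genes called lower, against 0.293% of all genes, and 1 of the 2 was B2M with its limit given above. The median difference of the list was 0.15, which became -0.23 without L-1236 and U-HO1.

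Of 11 chain and chaperone genes of MHC class II 7 (63.6%) lay at least 1 above the mean of the others, against 7.43% of all genes, namely HLA-DQA1, HLA-DQB1, HLA-DRA, HLA-DRB1, HLA-DPA1, HLA-DOA and CD74. The median difference of all 15 class II genes was 0.85, and 0.19 without L-1236 and U-HO1. HLA-DQA1 was at 11.97 in L-428 and 11.69 in KM-H2, with a median of 5.49 over the 6 other lines. HLA-DRA at 12.56 was within a range of 7.18 to 13.41. CIITA, the activator of the class, was at 5.52 within a range of 4.11 to 7.37. HLA genes are similar and variable in sequence, so probe sets of one may read another or miss an allele, and these values are less certain than others.

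Molecules by which L-428 meets other cells also differed. FSCN1 (fascin), an actin-bundling protein used to recognise HRS cells, was at 12.10 against 5.72, 9.10 and 10.61, a gap of 1.49, and highest at both probe sets. CD58, the ligand of CD2 on T- and NK-cells, was at 10.26 with a highest other level of 9.20, and was below background in SUP-HD1 at 2.51. CD274 (PD-L1) was at 6.48 within a range of 5.79 to 11.52, and PDCD1LG2 (PD-L2) at 5.06 within a range of 3.99 to 9.33, both at least 1 below the mean of the others. ITGA6, an integrin chain that binds laminin, was at 4.81, just above background, and although called higher its difference was -0.003 once low values were raised to background. Of 27 tetraspanins 3 (11.1%) were called higher, against 1.11% of all genes, namely TSPAN8, TSPAN33 at 9.97 with a highest other level of 7.94, and TSPAN2 at 7.03 with a highest other level of 5.60. TSPAN3, by contrast, was lowest in L-428 at 8.16.

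Of 6 anti-apoptotic genes of the BCL2 family 1 was called lower and 1 higher (16.7% each), against 0.293% and 1.11% of all genes. BCL2 was at 6.01 in L-428 against 7.62, 8.03 and 8.59, a gap of -1.61. The other 3 BCL2 probe sets read between 5.29 and 5.41 in L-428, inside the range of the other lines, which at these probe sets did not exceed 6.49. BCL2L10, a less studied anti-apoptotic member, was at 6.13 and below background in all other lines, where it ranged from 3.73 to 4.38. With BCL2L1 and BCL2A1, 3 of 6 anti-apoptotic members were at least 1 above the mean of the others. Of the pro-apoptotic members PMAIP1 (NOXA) was highest in L-428 at 11.37, next to SUP-HD1 at 11.22, and BID was lowest at 4.65, below background. PYCARD, the adaptor of inflammasomes, was also lowest, at 3.28 against 3.73, 7.15 and 8.64.

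Genes of proliferation lay above the mean of the other lines and the main p53 target CDKN1A below all of them. CDKN1A (p21), a cyclin-dependent kinase inhibitor, was at 6.03 against 7.63, 8.43 and 9.65, a gap of -1.60. The p53 targets MDM2 at 6.82 and ZMAT3 at 6.67 lay inside the range of the others but at least 1 below their mean. The median difference of 7 measured genes of this group was -0.66, within a range of -1.47 to 0.17. The group was not a full set of p53 targets. PMAIP1 at 11.37 and PERP at 11.90, both highest in L-428, were not among its members. BUB1, a kinase of the spindle checkpoint, was at 10.24 against 8.0, 8.64 and 9.15, a gap of 1.09. All 17 proliferation genes lay above the mean of the others, as did 52.2% of all genes above background in at least 1 line. Their differences ran from 0.22 to 1.64, with a median of 0.62 that became 0.46 without L-1236 and U-HO1. Of the 17 genes 4 (23.5%) lay at least 1 above the mean of the others, against 7.43% of all genes. AURKB at 9.28 and PLK1 at 8.58, both mitotic kinases, were highest in L-428, with highest other levels of 8.57 and 8.13.

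Of 8 measured antagonists of E proteins ID2 and HES1 lay at least 1 below the mean of the others with enough of them above background. ID3 was at 3.73 and HES1 at 3.82, both below background, although the lowest other levels of 3.36 and 3.35 were lower still. The median difference of the 8 was -1.12, against 0.005 over all genes, and 3 of the 8 were above background in L-428. The E proteins themselves differed little from the mean of the other lines, TCF3 by -0.53, which turned to 0.50 at its probe set of largest variance, and TCF4 by 0.36. Among lymphoid factors of other lineages GATA3, the factor of type 2 helper T-cells, was highest in L-428 at 11.23, next to U-HO1 at 10.76. TOX, a factor of T-cell development, was at 8.39 and was above background in L-540 alone besides L-428. EOMES, a factor of cytotoxic cells, was at 8.72 within a range of 3.42 to 9.02. The surface and receptor genes of T-cells had a median difference of -0.27 and none of 20 lay at least 1 above the mean, against 7.43% of all genes.

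B-cell genes gave no common direction. Of 45 measured, 6 (13.3%) lay at least 1 above the mean of the others and 3 (6.67%) at least 1 below. Both shares exceeded those of all genes, 7.43% and 4.05%, and the median difference was -0.005. Those above were BACH2, CD24, CD83, FYN, BCL11A and IRF8, and those below were PAX5, EBF1 and FCRLA. MYBL1, a factor of germinal centre B-cells, was called higher at 9.38, with HDLM-2 next at 8.29 and a lowest other level of 3.82. BCL6, the central repressor of germinal centre cells, was at 6.55 within a range of 5.17 to 9.10. SH2D1B, an adaptor of SLAM family receptors in NK-cells that was picked after its values were seen, was at 10.71 with a highest other level of 7.13.

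Of 24 measured receptors and effectors of BMP, activin and TGF-beta signalling, 8 (33.3%) lay at least 1 below the mean of the others, among them SMAD1, SMAD3, SMAD6, SMAD9, BMPR2 and ACVR1B, against 4.05% of all genes, and the median difference was -0.64. BMPR1B, a BMP receptor, ran the other way at 7.27 and was below background in the other lines, which ranged from 2.87 to 4.53. SMAD3 was lowest in L-428 at 3.66, and ACVR1B at 5.33, with lowest other levels of 4.01 and 6.13. Of 14 genes of the PI3K pathway 2 (14.3%) were called higher, against 1.11% of all genes, while PHLPP1 and PIK3R5 lay at least 1 below the mean of the others. PIK3CG, the gamma catalytic subunit of leukocytes, was at 9.54 with SUP-HD1 at 8.30 and the remaining lines between 2.67 and 4.08. INPP4B, a lipid phosphatase, was at 7.43 at 1 of 4 probe sets, with a highest other level of 5.56. MET, the receptor of hepatocyte growth factor, was highest in L-428 at all 4 probe sets, at 10.91 with SUP-HD1 next at 10.12. FZD6, a WNT receptor, was at 8.27 with HDLM-2 next at 7.35.

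The genes that the study followed showed no call in L-428. NKX2-2 was at 2.90, below background, as in all other lines, which ranged from 2.67 to 3.03. Its activators in the study's network included IL17RB, at 4.02 and below background, and DAZAP2, at 10.46 and inside the range of the others. SMURF2, an E3 ubiquitin ligase, was at 6.66 within a range of 6.53 to 7.73. AUTS2, a chromatin factor, was at 9.12, below U-HO1 at 10.19 and above the remaining lines, and MSX1, a homeobox repressor, was at 5.15 within a range of 3.11 to 7.52. PCGF5 at 8.64 and TLE4 at 5.81 were also inside the range, and FLI1 was lowest at 5.25, next to SUP-HD1 at 5.28. Of the other corepressors of the TLE family TLE1 was at 8.10, second to SUP-HD1, and TLE3 was lowest at 4.10, below background, at all 4 probe sets. TLE2 at 5.13, TLE5 at 7.94 and TLE6 at 5.06 lay inside the range of the other lines. None of 36 measured NKL homeobox genes differed from the mean of the others by 1 or more, the range being -0.95 to 0.95. By the broader rule 7.43% of all genes lay above that mean and 4.05% below. Only 10 of the 36 were above background in L-428 and 22 in at least 1 line. Near background, differences between lines could hardly show.

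**Figure D3:**
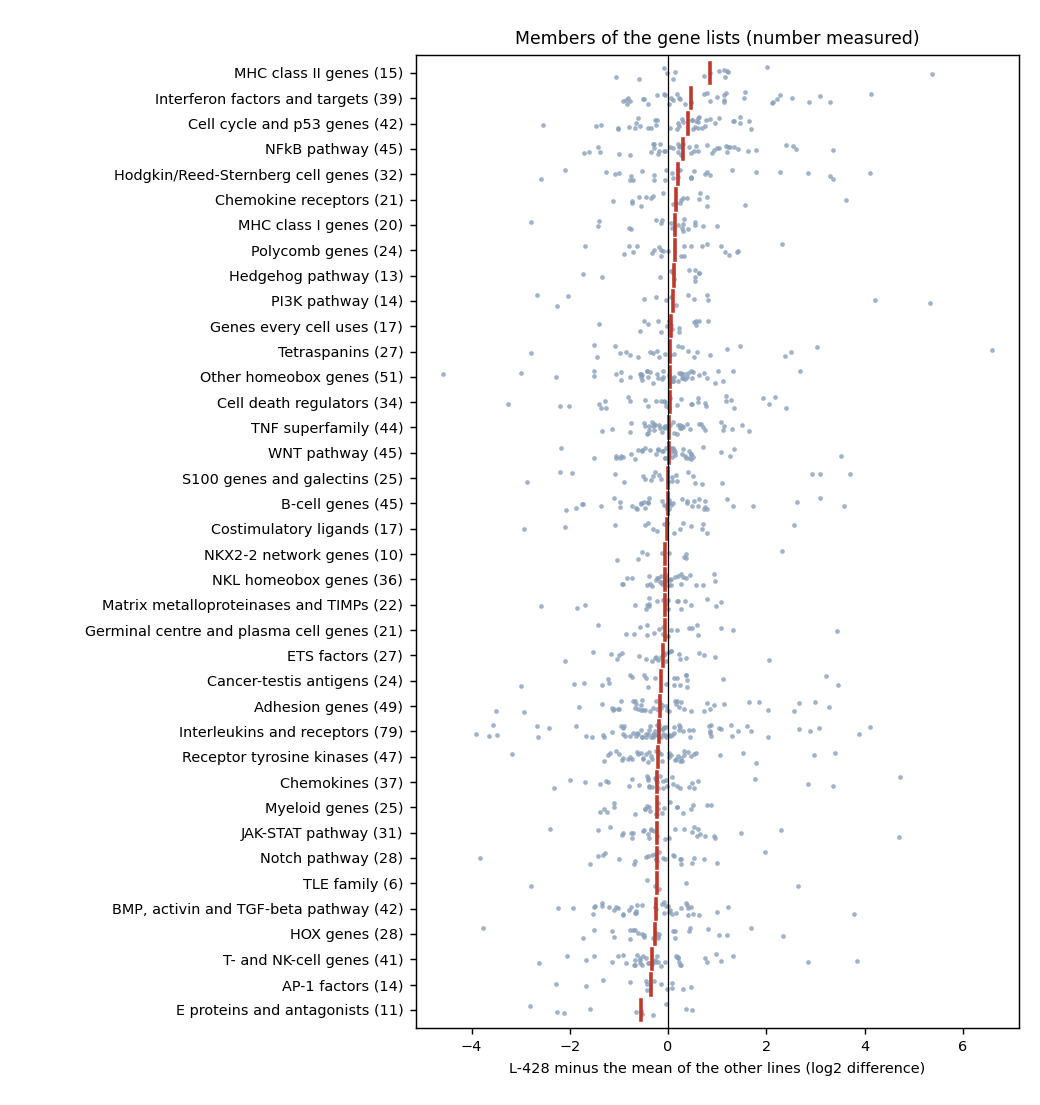
Difference of each member of the gene lists (L-428 minus the mean of the other lines, log2), 1 point per gene, with the median of each list as a red bar and the number of measured members in brackets. Medians run from 0.85 for MHC class II genes to -0.56 for E proteins and their antagonists, and the points of every list lie on both sides of 0.

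Some of the genes highest or lowest in L-428 were neighbours on the chromosomes, as was the case for every other line. Neighbours were counted among genes above background in at least 1 line. In 21 places at least 4 such genes in a row were highest in L-428, with 96 genes in all, and in 4 places they were lowest, with 17 genes. The other lines had 15 to 32 runs of the first kind and 8 to 121 of the second. TNFAIP3 lay in such a run on chromosome 6 with PEX7, NHEG1, IFNGR1 and PERP. Of the 21 genes centred on it 15 were above the mean of the others and 10 highest. Among all genes above background in at least 1 line 52.2% were above that mean and 12.5% highest. The stretches around TNFAIP3, BCL2 and MAMLD1 were centred on called genes, so each count includes a gene chosen for its call. MAP3K5, a stress-activated kinase in that stretch, was at 9.27 against 4.72, 5.70 and 7.51, and MTFR2 was at 9.76 with a highest other level of 8.48. MYB, at the edge of that stretch, was at 8.05 within a range of 6.71 to 9.32.

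BCL2 lay in 1 of the 4 low runs, on chromosome 18, with PHLPP1, KDSR, VPS4B and SERPINB3. Of the 21 genes centred on BCL2, 16 were below the mean of the others and 6 lowest. Among all genes above background in at least 1 line 8.98% were lowest. The stretch was not uniform, since SERPINB10 was at 7.31 in L-428 and below background in the others, with a highest level of 3.66. A further run on chromosome 5 held 8 genes, NNT-AS1, NNT, MRPS30, EMB, PARP8, ISL1, PELO and ITGA2. EMB, an adhesion molecule, was at 10.96 there with a highest other level of 9.13. Around MAMLD1 on the X chromosome EOLA1, HSFX3, EOLA2, MAMLD1 and MTM1 were all called higher, with gaps of 1.67, 2.27, 1.42, 1.71 and 1.05. Of the 21 genes centred on MAMLD1, 12 were above the mean of the others and 9 below, 6 were highest and 3 lowest, and the median difference was 0.12. The shares over all genes above background in at least 1 line were 52.2% above that mean, 12.5% highest and 8.98% lowest. TMEM185A and EOLA2-DT, between the genes called, lay inside the range of the other lines.

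**Figure D4:**
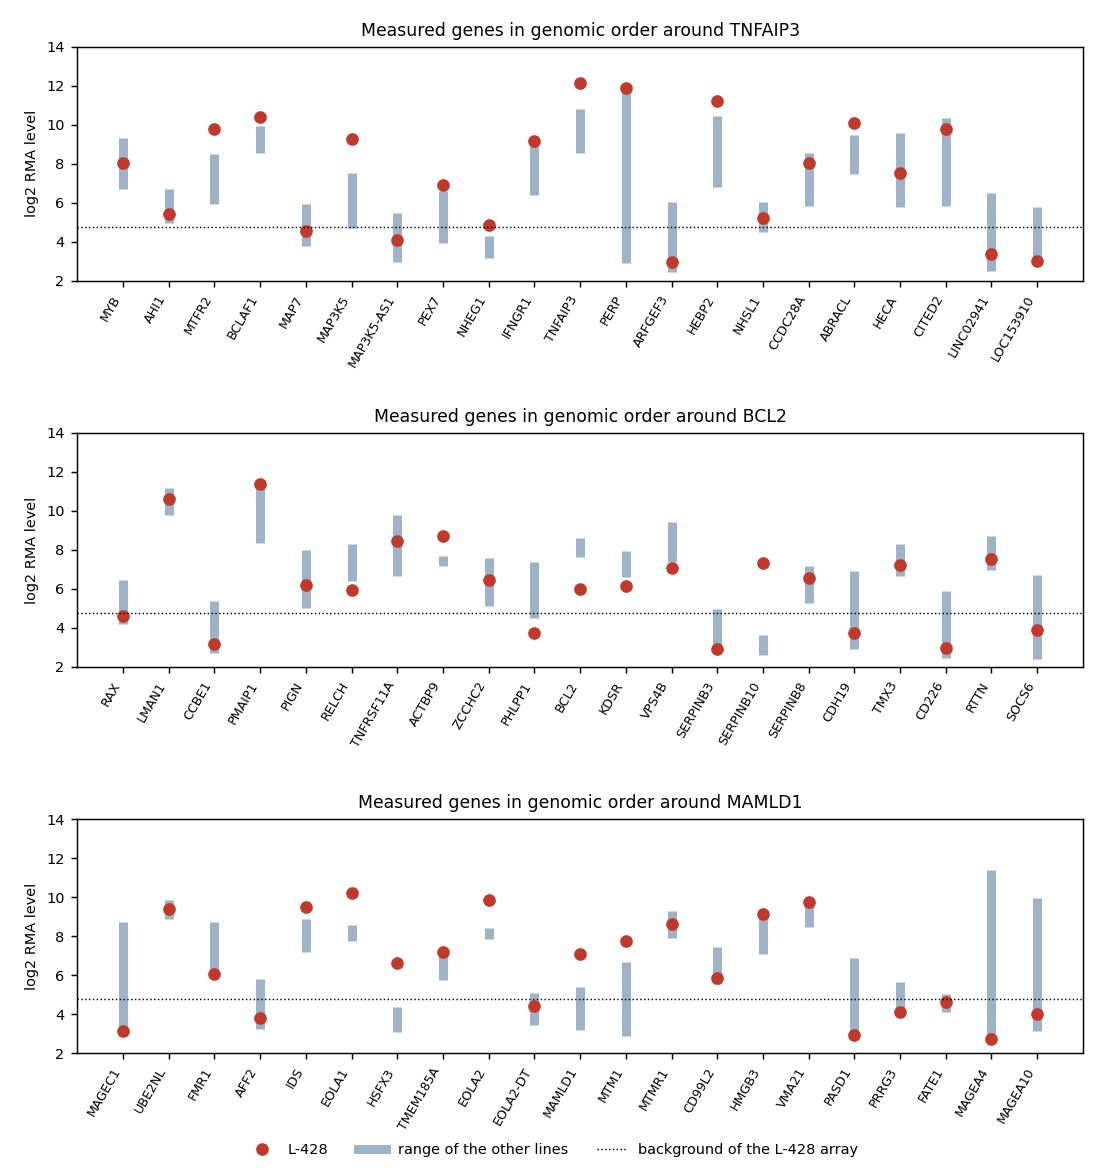
Levels (log2 RMA) of 21 genes in genomic order centred on TNFAIP3, BCL2 and MAMLD1, counting genes above background in at least 1 line. L-428 is shown as red circles, the range of the other 6 lines as bars and the background of the L-428 array as a dotted line. Red circles lie above many bars around TNFAIP3 and from EOLA1 to MTM1, and below the bars from PHLPP1 to SERPINB3 around BCL2.

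Over whole chromosomes the median of L-428 lay outside the range of the other lines on chromosome 8 and, at 0.16, on chromosome 16, and the largest shift in size was on chromosome 13. The 504 such genes of chromosome 8 had a median difference of 0.38 in L-428, the highest of the 23 chromosomes of that line. In the other lines the same median ran from -0.56 to 0.16. Without L-1236 and U-HO1 the median in L-428 was 0.34. Of the 504 genes 68.8% lay above the mean of the others, against 52.2% of all 14581 genes above background in at least 1 line. Of all 716 measured genes of the chromosome 21 (2.93%) were called higher, against 1.11% of all measured genes. CTHRC1 on that chromosome, a secreted protein of collagen matrix, was at 10.07 with U-HO1 at 7.69 and the remaining lines between 2.48 and 3.25. IDO1 and MYBL1 lie on the same chromosome. Chromosome 13 had the lowest median in L-428, -0.45, although L-1236 was lower at -0.70. Of its 253 genes above background in at least 1 line 25.3% lay above the mean of the others. The X chromosome was second highest in L-428 at 0.21, equal to KM-H2 at 0.21 to 2 decimals.

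**Figure D5:**
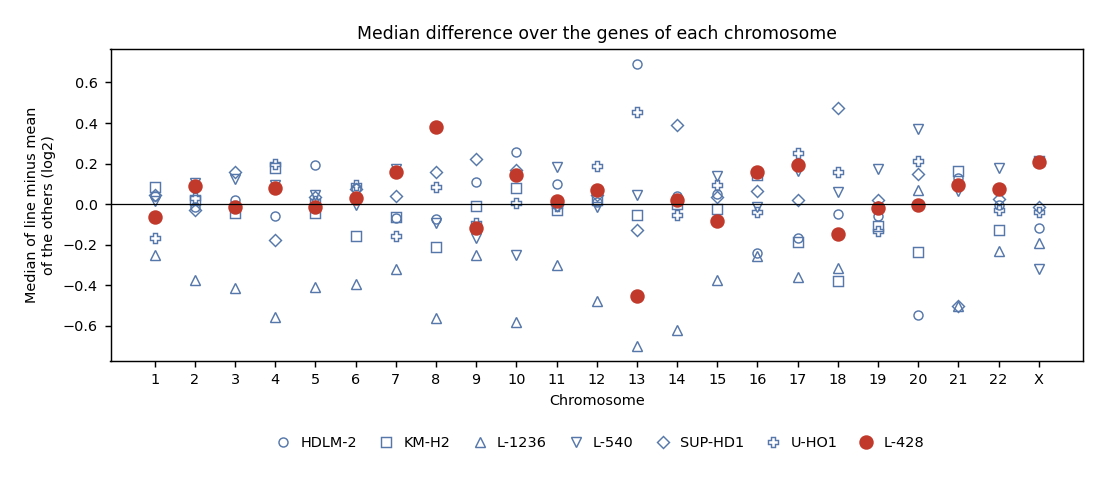
Median difference between a line and the mean of the others (log2) over the genes of each chromosome that were above background in at least 1 line. L-428 is shown as filled red circles and the other lines as open symbols. Chromosome 8 is the place where L-428, at 0.38, is farthest above the other lines, and at chromosome 13 it is at -0.45 between L-1236 and the rest.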

How the data were processed

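Total RNA of 7 HL cell lines was hybridised to Affymetrix U133 Plus 2.0 arrays, 1 per line. The authors deposited log2 levels per probe set, made by RMA background correction and quantile normalization with limma and affy, for which the sources used here give no version. The deposited values are levels and not ratios to the mean of the lines, carry 2 decimals and range from 1.99 to 14.17. Quantile normalization gives all arrays nearly the same distribution, so a shift of the whole transcriptome cannot be seen. No value column was left out, and 0 values were missing.

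Of 54675 probe sets 41097 had 1 gene symbol in the platform annotation provided, 1801 several and 11777 none, and only the first kind was used. For 41043 the symbol was updated through the gene identifier in RefSeq (GRCh38.p14). Where a gene had several probe sets, that of the highest average level stood for it. Olfactory receptor probe sets, 107 in number, gave the background of each array. Genes were named where they had 1 of the 15 largest gaps in either direction, where they were called members of a gene list (up to 4 per list by gap), of the TLE family or the NKX2-2 network, of the cell type markers, or of a run of at least 4 neighbouring genes. XIST, Y-linked genes and antigen receptor segments were left out. The lists held 1166 genes, of which 101 were not analysed here. The rule on the mean of the other lines was added after the values were seen. The members, lists and rules were chosen with earlier results of these data known. With 1 array per line no significance test between lines was made. The code that computes differences and calls was tested on simulated data with known shifts. Promoter sequences are those of RefSeq, and all 4 genes looked up were found. Python 3.11.15, pandas 2.3.3, numpy 2.4.6 and matplotlib 3.10.9 were used. With 1 array per line no error between cultures can be given, and other probe sets of a gene can differ from the one used. Alternatives changed the probe set, the scaling, the reference, the background and the lines compared.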

Additional observations from a re-analysis of the deposited data

How the results depend on the processing

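No paired analysis was possible because there is 1 array per line and no replicate number to pair. Of 68 counts of called genes over the alternatives 59 stayed within 1.5 times the reported count. When all probe sets of a gene were averaged, the genes lower than in all other lines numbered 31 and those at least 1 below the mean 505. Without probe sets named _x_at or _s_at, 33 were lower. At a gap of 2 the counts were 59 higher and 14 lower. Leaving out 1 other line at a time gave 261 to 295 genes higher and 70 to 167 lower, with 167 without L-1236 and 89 without SUP-HD1, since fewer lines then have to be passed. Without L-1236 and U-HO1 together they were 362 and 220. For the counts by the mean of the others the ranges on leaving out 1 line were 1303 to 1621 above and 654 to 958 below. Signs were kept by 454 of 532 list medians and 1685 of 1745 values of named genes. Among results larger in size than 0.48, the SD between probe sets, 1 list median changed sign, that of E proteins and antagonists at 0.00 (0.0025) without _x_at and _s_at probe sets. So did 12 values of named genes. Where the most variable probe set stood for a gene, the difference became 0.02 (0.015) for B2M, 0.22 for CD79B, -1.07 for RAB30 and 0.50 for TCF3. Without _x_at and _s_at probe sets it became 0.02 (0.015) for B2M, 0.027 (0.0267) for GNLY, 0.28 for MFNG and 0.23 for TCF3. With low values raised to background it became -0.07 (-0.065) for BCL11B, -0.043 for EYA4 and -0.003 for ITGA6, and the difference of CD3D ran from -0.862 to 0.062 on leaving out 1 line, the latter without KM-H2. The cause was not tested beyond these constructions. For 65 of the 219 genes called higher all other lines were below background and for 26 of the 58 called lower L-428 was, so the size of these differences is not exact.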
